A study of Mus musculus with 3 samples.

Results

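Transcripts of 9 histone genes were followed in single cells of the mouse subventricular zone (SVZ), the germinal layer along the lateral ventricle. They were found by symbol in the gene list of the deposited matrices: Hist1h2ap and Hist2h2aa1, which encode replication-linked H2A, and H2afz, H2afx, H2afv, H2afy, H3f3a, H3f3b and H1f0, which encode variant or linker histones. All 9 were present among 27998 listed genes. The members were selected on their UMI levels in dividing, ependymal and astroglial cells, so those levels are given as a description and carry no test.

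Cells came from adult mice with the alleles aSMACreERt2::Rosa26-tdTomato x Sox2tm2Hoch on a mixed C57/Bl6 and 129S1SvlmJ background, with n = 5 mice in the labels. The Cre is tamoxifen-dependent and driven by the smooth muscle actin promoter, and the Sox2 allele marks Sox2-expressing cells with GFP, so every library was GFP-positive by sort. One library held tdTomato-positive cells and 2 libraries held tdTomato-negative cells. Which animals went into which library is not stated in the labels, so the spread between the 2 tdTomato-negative libraries may be technical. A p-value here rests on that spread as shared over the genes tested, and not on a gene's own 2 values alone. The tdTomato-positive library held 788344 unique molecular identifiers (UMIs, 1 per captured molecule), against 929997 and 3593633 in tdTomato-negative libraries 1 and 2. After filtering, 252, 256 and 1121 cells were kept, and 3 barcodes occurred in more than 1 library. Mitochondrial UMIs had a median share of 8.27% in tdTomato-positive cells, against 3.22% and 3.38% in tdTomato-negative cells of libraries 1 and 2.

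DNA is wrapped around octamers of H2A, H2B, H3 and H4, with H1 on the linker. Replication-linked histone genes lie in clusters, are read mainly in S phase, and give mRNAs that in most cases end in a stem-loop in place of a poly-A tail; stem-loop binding protein (Slbp) holds that loop and governs the life of the mRNA. Variant histones such as H2A.Z and H3.3 come from genes outside the clusters with ordinary polyadenylated mRNAs, and are made throughout the cell cycle and in cells that have stopped dividing. The 10x 3' chemistry primes on poly-A, so an mRNA with no tail is not its intended target.

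The stem-loops of the annotated transcripts (GENCODE M21, GRCm38) are shown because the bases before them set the 2 replication-linked members apart from each other. Each line gives the 30 bases that end with the stem-loop, which is not always the transcript end, 5′ to 3′ on the transcript strand, with the stem-loop in capitals.
Hist1h2ap: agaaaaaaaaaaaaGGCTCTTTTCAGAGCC
Hist2h2aa1: cgagctcctaaaaaGGCTCTTTTCAGAGCC
H2afx: cacacctccacaaaGGCCCTTTTAAGGGCC
Hist1h2ae: gtaaaaaaaacaaaGGCTCTTTTCAGAGCC
Hist1h4h: cctacaaaaccaaaGGCCCTTTTCAGGGCC
These lie at chr13:21833029-21833058 (minus strand), chr3:96246018-96246047 (plus), chr9:44335226-44335255 (plus), chr13:23570668-23570697 (minus) and chr13:23531444-23531473 (plus), all in annotated protein-coding transcripts. Coordinates of the genes on GRCm38 are chr13:21833026-21833507 for Hist1h2ap, chr3:96245497-96246082 for Hist2h2aa1, chr3:137864487-137866922 for H2afz, chr9:44334694-44336077 for H2afx and chr11:6427229-6444443 for H2afv. H2afy lies at chr13:56073619-56136361, H3f3a at chr1:180800832-180813943, H3f3b at chr11:116021912-116027962 and H1f0 at chr15:79028450-79030504.

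In Hist1h2ap a run of 12 A directly preceded the stem-loop, and the transcript ended 3 bases after it. Hist2h2aa1 had 5 A there and 35 bases after the loop. Neither had AATAAA or ATTAAA in its last 60 bases. H2afx, whose protein is phosphorylated at DNA breaks, carried a stem-loop 822 bases before its end and a poly-A signal at the end. Hist1h2ae and Hist1h4h also carried both features. No stem-loop was found in the transcripts of H2afz, H2afv, H2afy, H3f3a, H3f3b or H1f0.

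Among 67 clustered histone rows (symbols starting with Hist and a digit) that had an annotated transcript, 30 had a stem-loop and no poly-A signal in the last 60 bases. Hist1h2ap gave 9639 of the 10869 UMIs of those 30 rows, and the other 29 gave 1230. The 12 rows with both a stem-loop and a poly-A signal gave 5382 UMIs. A run of at least 8 A directly before the stem-loop was found in 2 rows, Hist1h2ap and Hist1h2ao, and Hist1h2ao was named after its value was seen. Whether capture started at that run was not tested. Over the whole series, 69 such rows were listed, 64 had at least 1 UMI, 15 had at least 50, and Hist1h2ap held 52.3% of their 18442 UMIs.

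The copy that a read came from is uncertain for both replication-linked members. Transcripts of Hist1h2ap and Hist1h2ao were identical over 452 aligned bases, and 8 of 17 other H2A transcripts were at least 95% identical to Hist1h2ap. Among these 8, only Hist1h2ao matched all of the last 90 bases of Hist1h2ap. The others matched from 27 (Hist1h2ah) to 73 (Hist1h2ab) of them. Hist2h2aa1 and its neighbour Hist2h2aa2 were identical over 528 bases. The matrices nonetheless gave 2 UMIs to Hist1h2ao and 1 to Hist2h2aa2. A value of Hist1h2ap or Hist2h2aa1 is therefore the value of a row of the matrix.

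Cells were clustered with the histone genes left out and named from marker lists. The dividing-like cluster (26 cells of tdTomato-negative library 1 and 112 of library 2, none of the tdTomato-positive library) was led by Cenpf, Top2a and Nusap1. A further cluster of 118 cells led by Ung, Mcm2 and Mcm3, genes of DNA repair and replication licensing, matched no marker list and is called the Ung-led cluster. The 235 ependymal-like cells (177, 12 and 46 per library) had Ccdc153, Dynlrb2 and Rsph1 among the leading genes of their main cluster of 201 cells, and Mia and Rarres2 among those of the other 34. The 279 astrocyte-like cells (17, 45 and 217) formed a cluster led by Slc7a10 and a cluster led by Gfap. A cluster of 291 cells led by Prokr2, Pbx3 and Foxp2 is called by its leading gene. Levels are CPM, the UMIs of a gene scaled to all UMIs of the cells of a class in a library, where it held at least 10 cells. Each UMI counts 1 molecule whatever the transcript's length, and intervals cover counting error only.

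Hist1h2ap was highest in dividing-like cells. Its level was 4118 CPM (989 UMIs) and 7782 CPM (6630 UMIs) in the dividing-like cells of tdTomato-negative libraries 1 and 2, and 0 and 181 CPM (0 and 32 UMIs) in their ependymal-like cells. Astrocyte-like cells of the same libraries had 40.8 and 189 CPM. Among tdTomato-positive cells, the 177 ependymal-like ones had 5.10 CPM (3 UMIs) and the 17 astrocyte-like ones 0 UMIs. The dividing-like levels lay above every other class in both libraries.

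The Ung-led cluster, neuroblast-like cells and the Prokr2-led cluster lay between those ends in the same order in both tdTomato-negative libraries. Hist1h2ap had 851 and 1487 CPM in the first, neuroblast-like cells had 362 and 703 CPM, and the Prokr2-led cluster had 231 and 464 CPM. The counting intervals of neuroblast-like cells (287 to 450 CPM) and the Prokr2-led cluster (150 to 342 CPM) overlapped in library 1 and did not in library 2 (647 to 763 and 399 to 537 CPM). The intervals of dividing-like cells, the Ung-led cluster and neuroblast-like cells did not overlap in either library, but they leave out the spread between cells. Per 10000 UMIs, the median cell of the Ung-led cluster had 3.36 of Hist1h2ap in library 1 and 5.08 in library 2. The median neuroblast-like cell had 0 and 5.05, so in library 2 the median cells of these 2 classes were about level. Oligodendrocyte precursor-like cells kept no such place, with 31.3 CPM (3.79 to 113) in library 1 and 610 CPM (501 to 736) in library 2. Their library 2 interval overlapped those of neuroblast-like cells and the Prokr2-led cluster. However, 1 cell held 53 of the 109 UMIs there, so that level does not describe the class. A dividing-like cell held a median of 28 UMIs of Hist1h2ap in library 1 and 54 in library 2, with up to 115 and 165 in 1 cell. The share of cells with a UMI was 96.4% of dividing-like cells (Clopper-Pearson 95% interval 91.7 to 98.8%, median 7294.5 UMIs per cell), against 10.6% of ependymal-like cells (7.0 to 15.3%, median 3620 UMIs). After thinning each cell to 1000 UMIs the shares were 80.4% and 3.69%. Of 20 endothelial-like cells, with a median of 1072 UMIs, none had a UMI of Hist1h2ap (Clopper-Pearson upper limit 16.8%).

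**Figure D1:**
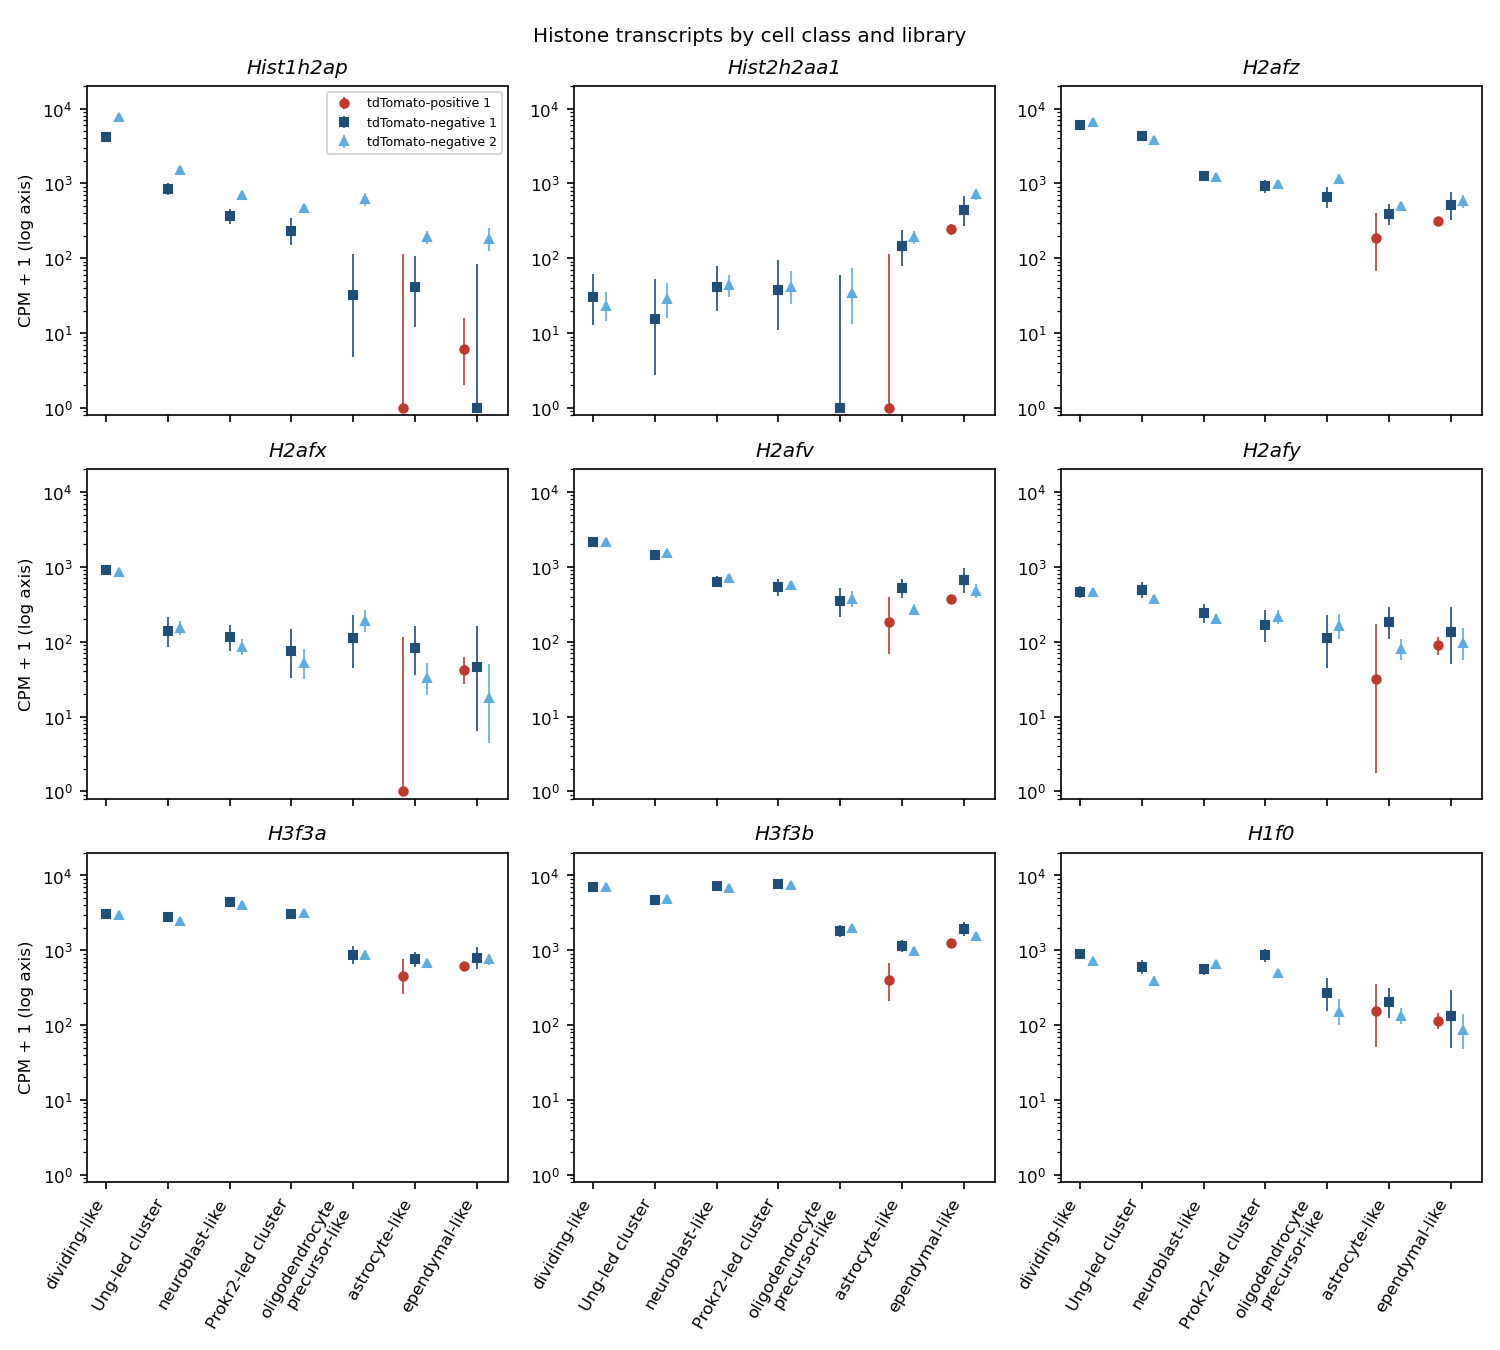
Level of each histone transcript (CPM + 1, log axis) by cell class, 1 point per library with at least 10 cells of the class and bars for the exact Poisson 95% interval of its count. Hist1h2ap stood at 4118 and 7782 CPM in dividing-like cells, and Hist2h2aa1 was highest in ependymal-like cells. H3f3a was higher in neuroblast-like than in dividing-like cells, and H3f3b was about as high in both.

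Low Hist1h2ap values were found in cells outside division, and they differed between the libraries. In tdTomato-negative library 2 they were 158 CPM in oligodendrocyte-like, 181 CPM in ependymal-like and 189 CPM in astrocyte-like cells, which is 6.74%, 7.70% and 8.05% of the level over all kept cells of that library. The summed level of 35 genes of G2 and mitosis in the same 3 classes was 14.5%, 9.74% and 7.31% of its level over the library. Of 16 dividing markers, 11, 12 and 16 had at least 1 UMI there. In tdTomato-negative library 1, Hist1h2ap in ependymal-like and astrocyte-like cells was 0% and 3.11% of its level over the library, and the genes of G2 and mitosis were at 10.5% and 9.18%. The part of free RNA in the droplets in these values was not tested.

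Hist2h2aa1 ran the other way. Dividing-like cells had 29.1 and 22.3 CPM (7 and 19 UMIs) in tdTomato-negative libraries 1 and 2, against 445 and 712 CPM (20 and 126 UMIs) in ependymal-like cells. The tdTomato-positive ependymal-like cells had 243 CPM (143 UMIs). Every ependymal-like value lay above both dividing-like values. Astrocyte-like cells had 0, 143 and 189 CPM in the 3 libraries, and pooled over libraries the Gfap-led astrocyte-like cluster had 326 CPM against 137 CPM in the Slc7a10-led one. A UMI of Hist2h2aa1 was found in 15.2% of dividing-like cells (9.67 to 22.3%), against 54.5% of ependymal-like cells (47.9 to 61.0%), although dividing-like cells held more UMIs per cell.

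All 7 variant and linker members were higher in dividing-like than in ependymal-like cells, and so was Hist1h2ap. With 10 CPM added, 8 of 9 members were at least 2-fold higher in both tdTomato-negative libraries, where 15.3% of 6673 genes at a mean of at least 20 CPM met the same fold. Hist2h2aa1 was at least 2-fold lower in both libraries, as 20.1% of the genes were. Against astrocyte-like cells the counts were again 8 higher, with 17.7% of 6387 genes, and 1 lower, with 15.1%. The members were picked for these contrasts, so nothing is read from the counts. The median log2 ratio of the 7 variant and linker members over ependymal-like cells was 2.00, that of all genes 0.08.

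H2afz encodes H2A.Z, a variant placed around transcription start sites. It had 6024 and 6558 CPM in dividing-like cells, 4242 and 3833 CPM in the Ung-led cluster, and 512 and 576 CPM in ependymal-like cells of tdTomato-negative libraries 1 and 2. Neuroblast-like cells had 1257 and 1205 CPM. Its log2 ratios of dividing-like over ependymal-like cells were 3.53 and 3.49 in libraries 1 and 2, so the libraries differed little. H2afv, which encodes the close paralogue H2A.Z.2, had 2119 and 2124 CPM in dividing-like cells against 667 and 480 CPM in ependymal-like cells, with a smaller mean log2 ratio of 1.89. H2afz therefore made up 74.0% and 75.5% of the UMIs of the pair in dividing-like cells of libraries 1 and 2, and 43.4% (29.8 to 57.7%) and 54.5% (47.1 to 61.8%) in ependymal-like cells.

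H2afx had 903 and 842 CPM in dividing-like cells, against 44.5 and 16.9 CPM (2 and 3 UMIs) in ependymal-like cells of the same libraries. Unlike H2afz it was low in the Ung-led cluster, at 138 and 153 CPM. The log2 ratio of H2afx in dividing-like cells over the Ung-led cluster was 2.62 and 2.39, and that of H2afz 0.50 and 0.77. Against the Ung-led cluster, 2 of 9 members were at least 2-fold higher in both libraries, H2afx and Hist1h2ap, where 2.61% of 6005 genes were, and none was lower, as 0.716% of genes were. H2afy encodes macroH2A1, a variant with a large extra domain that is enriched on the inactive X chromosome. Its levels were 462 and 455 CPM in dividing-like cells, 495 and 368 CPM in the Ung-led cluster, and 133 and 96.0 CPM in ependymal-like cells.

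Of the 2 genes of histone H3.3, the replacement H3, H3f3a was higher in neuroblast-like than in dividing-like cells and H3f3b was about level. H3f3a was highest in neuroblast-like cells: dividing-like cells had 3048 and 3005 CPM, against 4368 and 4028 CPM in neuroblast-like cells. H3f3b had 6986 and 6964 CPM in dividing-like cells, 7230 and 6791 CPM in neuroblast-like cells and 7579 and 7530 CPM in the Prokr2-led cluster. Dividing-like and neuroblast-like levels of H3f3b thus overlapped. H3f3a had 614 CPM in tdTomato-positive ependymal-like cells, against 801 and 763 CPM in tdTomato-negative ones. For H3f3b these values were 1238, 1913 and 1571 CPM. The 12 microglia-like cells, all tdTomato-positive, had 4038 CPM of H3f3b but 400 CPM of H3f3a, so H3f3a made up 9.01% (4.41 to 15.9%) of the pair there, against 33.1% (30.4 to 36.0%) in the ependymal-like cells beside them.

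H1f0 encodes H1.0, a linker histone known for accumulating in cells that leave the cycle. Here it had 887 and 721 CPM in dividing-like cells, 556 and 647 CPM in neuroblast-like cells and 861 and 492 CPM in the Prokr2-led cluster. It had 114 CPM in tdTomato-positive ependymal-like cells, against 133 and 84.7 CPM in tdTomato-negative ones. In the Prokr2-led cluster the libraries lay further apart than that class lay from dividing-like cells in either library. Against neuroblast-like cells, 4 of 9 members were at least 2-fold higher in both libraries (Hist1h2ap, H2afz, H2afx and H2afv), where 7.2% of 6044 genes were, and none was lower, as 4.68% of genes were. The log2 ratios of H3f3a, H3f3b and H1f0 against neuroblast-like cells averaged -0.47, -0.01 and 0.41.

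Within the dividing-like cluster Hist1h2ap was highest on the S phase side. Cells of each tdTomato-negative library were put in 3 equal bins by the share of G2 and mitosis UMIs among their S phase plus G2 and mitosis UMIs, with no histone in either list. From the bin nearest S phase to the bin nearest mitosis, Hist1h2ap had 8124, 3127 and 928 CPM in library 1 (9, 9 and 8 cells) and 11432, 7749 and 3514 CPM in library 2 (38, 37 and 37 cells). The intervals of the 3 bins did not overlap in either library, but they leave out the spread between cells. Over all dividing-like cells, Hist1h2ap ran from 0 to 115 UMIs per cell in library 1 and from 0 to 165 in library 2. Slbp fell along the same bins, at 494, 155 and 84.4 CPM in library 1 and 642, 208 and 141 CPM in library 2. The bins are ranges of a score and not phases, and 13 of 26 and 46 of 112 cells lay within 5 percentage points of a boundary.

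Over the same bins the variant members differed less. H2afz had 5969, 5866 and 6286 CPM over the 3 bins in library 1 and 6166, 6806 and 6735 CPM in library 2. H2afx was lowest in the bin nearest S phase, with 735, 832 and 1181 CPM in library 1 and 622, 1015 and 902 CPM in library 2. H2afv increased in both libraries, with 1711, 2096 and 2602 CPM in library 1 and 1877, 2162 and 2374 CPM in library 2. H3f3b was highest in the first bin, at 9746, 5300 and 6061 CPM in library 1 and 8172, 6554 and 6008 CPM in library 2. The mean log2 ratio of the first over the last bin was 2.41 for Hist1h2ap, -0.10 for H2afz, -0.60 for H2afx, -0.47 for H2afv and 0.56 for H3f3b. It was 0.47 for H2afy, 0.21 for H3f3a and 0.43 for H1f0, and H1f0 had 0.94 in library 1 and -0.08 in library 2. Hist2h2aa1, with 6, 1 and 0 UMIs over the bins of library 1 and 5, 11 and 3 in library 2, had ratios of 3.11 and 0.29 that rest on these few molecules.

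**Figure D2:**
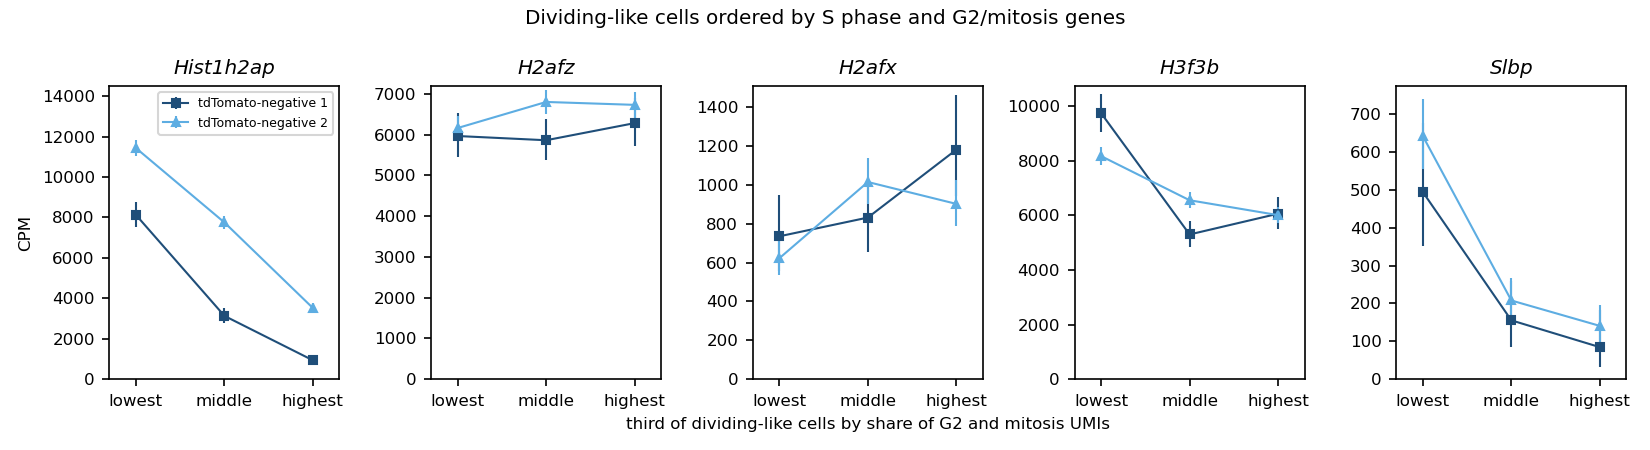
Level (CPM, linear axis from 0) of 4 histone transcripts and Slbp in dividing-like cells of the 2 tdTomato-negative libraries, in equal bins ordered from the lowest to the highest share of G2 and mitosis UMIs, with exact Poisson 95% intervals. Hist1h2ap and Slbp decline from the first bin to the last, while H2afz stays between 5866 and 6806 CPM.

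When the Ung-led cluster was added to the cells that were binned, the first bin no longer held the peak. Hist1h2ap then had 1253, 6161 and 1574 CPM in library 1 and 2677, 8493 and 4647 CPM in library 2. The mean log2 ratio of the first over the last bin was -0.56 in that setting, which was chosen after seeing the data. Pcna, a replication clamp, had 596, 443 and 119 CPM over these bins in library 1 and 462, 422 and 82.4 CPM in library 2. Hist1h2ap was uneven within the Ung-led cluster, where the 10% of cells with the most held 54.7% and 72.3% of its UMIs in libraries 1 and 2.

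Hist1h2ap also differed between the 2 tdTomato-negative libraries in cells of the same class. Its ratio of library 2 over library 1 was 1.89 (exact conditional 95% interval 1.77 to 2.02) in dividing-like cells, 1.75 (1.44 to 2.14) in the Ung-led cluster, 1.94 (1.54 to 2.49) in neuroblast-like cells and 2.01 (1.32 to 3.18) in the Prokr2-led cluster. It was 4.63 (1.75 to 17.3) in astrocyte-like cells, on 4 UMIs in library 1, and ependymal-like cells had 0 UMIs in library 1 and 32 in library 2. Of 1710 genes at a mean of at least 100 CPM in dividing-like cells, 98.2% were within 2-fold between the libraries and 5 had a larger ratio than Hist1h2ap. H2afz, H2afv and H3f3b had ratios of 1.09, 1.00 and 0.997 there. Among other clustered rows, Hist1h2ae had a ratio of 1.71 (1.21 to 2.47) and Hist3h2ba 0.648 (0.471 to 0.901). The median share of G2 and mitosis UMIs was 75.8% and 78.7% in dividing-like cells of libraries 1 and 2. With 1 library on each side the difference has no replicate check, and its source was not tested.

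**Figure D3:**
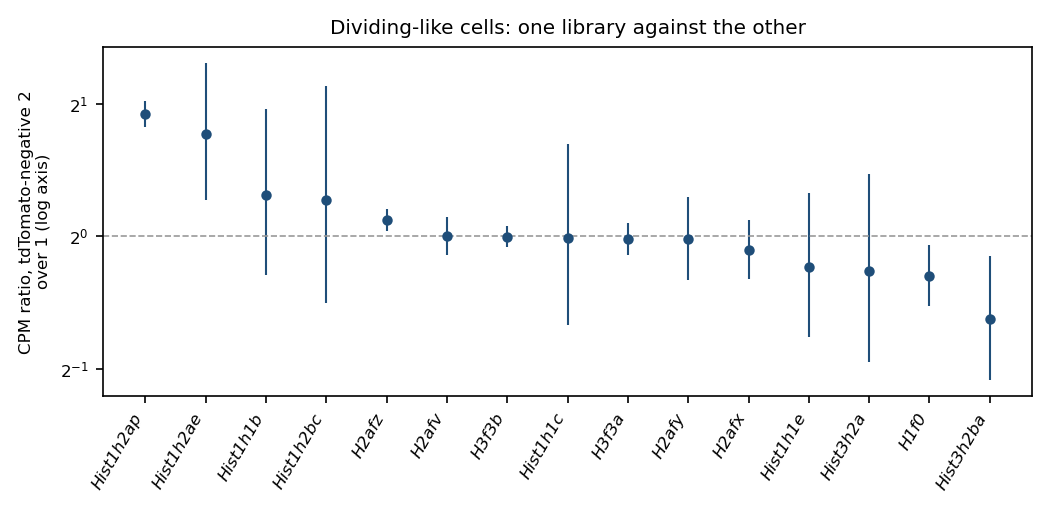
Ratio of CPM in dividing-like cells, tdTomato-negative library 2 over library 1 (log axis), for members and other clustered histone rows with at least 50 UMIs there, with exact conditional 95% intervals. Hist1h2ap at 1.89 and Hist1h2ae at 1.71 stand above 1, and the variant members lie between 0.813 and 1.09.

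The other clustered rows differed in the class where they were highest. Of 66 such rows, 12 reached a mean of 20 CPM in the comparison with ependymal-like cells; 4 were at least 2-fold higher in dividing-like cells in both libraries and 6 were lower, beside 15.3% and 20.1% of all genes. The H2A row Hist1h2ae had 158 and 270 CPM in dividing-like cells, against 0 and 5.65 CPM in ependymal-like cells. The linker histone rows Hist1h1e and Hist1h1b likewise had 147 and 138 CPM pooled over dividing-like cells, against 16.0 and 3.70 CPM over ependymal-like cells. On the other side Hist1h4h, an H4 row, had 16.7 and 17.6 CPM in dividing-like cells, against 1135 and 887 CPM in ependymal-like cells of tdTomato-negative libraries 1 and 2. Its level was 1071 CPM in tdTomato-positive ependymal-like cells, and 40.8 and 35.5 CPM in tdTomato-negative astrocyte-like cells.

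Hist1h2bc, an H2B row, had 70.8 and 85.7 CPM in dividing-like cells, against 645 and 870 CPM in ependymal-like and 561 and 434 CPM in astrocyte-like cells of tdTomato-negative libraries 1 and 2. The H4 row Hist1h4i had 33.9 CPM pooled over dividing-like cells, against 328 CPM over ependymal-like cells. Hist1h1c, which encodes a linker histone, had 104 and 103 CPM in dividing-like cells, against 245 and 249 CPM in ependymal-like cells. Neuroblast-like cells had 276 and 397 CPM of Hist1h1c. Hist1h2al, annotated as a processed pseudogene, had 12.5 and 11.7 CPM in dividing-like cells, against 222 and 203 CPM in ependymal-like cells. Hist3h2ba and Hist3h2a, an H2B and an H2A row, had 724 and 652 CPM and 357 and 342 CPM in neuroblast-like cells. The Prokr2-led cluster was close, with 546 and 677 CPM of Hist3h2ba and 287 and 327 CPM of Hist3h2a. For Hist3h2ba it was the higher of these 2 classes in library 2.

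**Figure D4:**
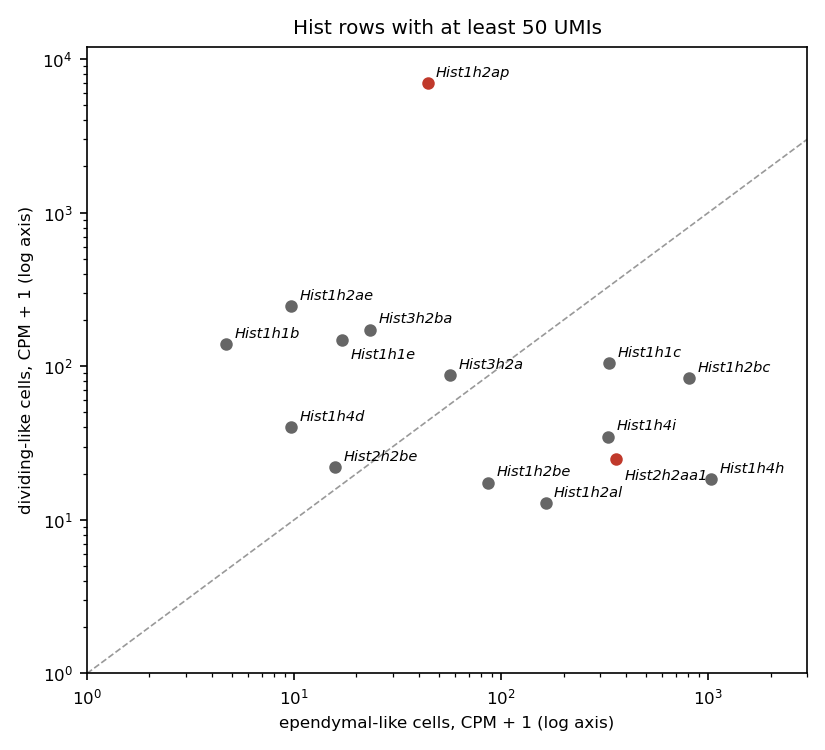
Pooled level (CPM + 1, log axes) of the 15 clustered histone rows with at least 50 UMIs, dividing-like cells on the vertical and ependymal-like cells on the horizontal axis, with members in red and the dashed line marking equal levels. Hist1h2ap stands alone at the top, and Hist1h4h, Hist1h2bc and Hist2h2aa1 lie on the ependymal-like side.

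Genes that act on histones were counted from lists. Of 18 measured genes for histone mRNA 3′ end processing and decay, 4 were at least 2-fold higher in dividing-like than in ependymal-like cells in both libraries and 1 was lower, beside 15.3% higher and 20.1% lower of all genes, so the share higher was near that of all genes. Casp8ap2 (FLASH), which acts in 3′ end cleavage, had 62.4 and 75.1 CPM in dividing-like cells against 0 and 16.9 CPM in ependymal-like cells. Cpsf2, a cleavage factor subunit, had 74.9 and 71.6 CPM in dividing-like cells against 0 UMIs in ependymal-like cells of both libraries. Mif4gd, which binds Slbp, was the lower one, at 12.5 and 9.39 CPM in dividing-like cells against 111 and 90.4 CPM in ependymal-like cells. Ncbp1, the large cap-binding subunit, had 54.1 and 42.3 CPM against 0 and 11.3 CPM.

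Of 29 measured histone chaperones and H2A.Z loaders, 16 were at least 2-fold higher in dividing-like cells and none was lower, beside 15.3% higher and 20.1% lower of all genes. Nasp, an H1 and H3-H4 chaperone, had 329 and 396 CPM in dividing-like cells against 0 and 22.6 CPM in ependymal-like cells. Hjurp, which loads the centromeric variant Cenpa, had 341 and 381 CPM against 22.2 and 16.9 CPM. Dek and Set, chromatin chaperones, had 841 and 873 CPM and 720 and 606 CPM in dividing-like cells, against 66.7 and 198 CPM and 133 and 67.8 CPM in ependymal-like cells. Of 4 other measured variant and linker histones, 3 were higher: Cenpa with 616 and 685 CPM, H1fx with 387 and 430 CPM and H2afy2 with 254 and 243 CPM in dividing-like cells. H2afj had 233 and 158 CPM in dividing-like cells against 245 and 96.0 CPM in ependymal-like cells. All these lists were chosen with results of these data known.

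Across 20 class-by-library profiles all pairs of members without Hist2h2aa1 correlated positively, to differing degrees. Over these pairs Pearson's r of log2(CPM + 10) ran from 0.53 (H2afv and H3f3b) to 0.90 (H2afv and H2afy). It was 0.89 between Hist1h2ap and H2afz, 0.86 between H3f3a and H3f3b and 0.66 between Hist1h2ap and H3f3b. Between Hist1h2ap and Hist2h2aa1 it was 0.02. No background r over pairs of other genes is given here. Among 3461 genes at a mean of at least 50 CPM, Lockd was nearest to Hist1h2ap (r = 0.94), followed by Cks2, Prmt1, Adh5 and Tox3 (0.90 each). Nearest to H2afz was 2810417H13Rik (0.95), then Hnrnpa3, Mbd3, Hmgn2 and Lockd (0.93 each). H1f0 lay nearest Arf4 (0.91), then Gm9844, Ccni, Dlx1 and Eif3e (0.89 to 0.90). The profiles share 3 libraries and their depths.

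Promoters of 8 members were found in the RefSeq table (GRCm38.p6, 250 bases before to 50 after the start). Those of Hist1h2ap, H2afz and Hist2h2aa1 are shown because Hist1h2ap and H2afz were both high in dividing-like cells and Hist2h2aa1 ran the other way. Capitals mark CCAAT or its complement ATTGG, and TATAAA or its complement.
Hist1h2ap: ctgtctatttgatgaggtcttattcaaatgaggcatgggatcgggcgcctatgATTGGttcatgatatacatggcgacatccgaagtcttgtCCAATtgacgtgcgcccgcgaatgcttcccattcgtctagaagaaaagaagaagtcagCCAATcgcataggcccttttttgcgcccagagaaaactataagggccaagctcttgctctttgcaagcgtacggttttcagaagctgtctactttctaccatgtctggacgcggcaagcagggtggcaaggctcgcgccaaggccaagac
H2afz: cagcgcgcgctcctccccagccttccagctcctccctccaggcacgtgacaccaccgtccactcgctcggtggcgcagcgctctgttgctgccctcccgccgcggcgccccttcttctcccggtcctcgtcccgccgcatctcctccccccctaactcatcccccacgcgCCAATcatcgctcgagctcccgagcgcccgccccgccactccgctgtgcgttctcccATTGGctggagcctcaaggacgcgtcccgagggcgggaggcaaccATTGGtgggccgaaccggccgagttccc
Hist2h2aa1: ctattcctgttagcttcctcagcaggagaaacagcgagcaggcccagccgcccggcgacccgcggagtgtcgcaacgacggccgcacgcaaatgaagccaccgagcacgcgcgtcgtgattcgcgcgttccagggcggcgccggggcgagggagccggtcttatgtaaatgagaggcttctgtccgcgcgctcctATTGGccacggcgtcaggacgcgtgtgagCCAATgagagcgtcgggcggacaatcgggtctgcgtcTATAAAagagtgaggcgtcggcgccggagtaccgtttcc
They lie at chr13:21833426-21833725 (minus), chr3:137864237-137864536 (plus) and chr3:96245247-96245546 (plus). CCAAT was found on either strand 3, 3 and 2 times, and in 37.4% of 32851 promoters of that length. Among the promoters shown, TATAAA was found once, in Hist2h2aa1, and 13.6% of all promoters held it. The promoter of H3f3b, which is not shown, also held 1. The letters TTTCCCGC and TTTGGCGC, forms of the E2F element, were not in these windows, and 1.07% and 0.514% of all promoters held them. No motif overlapped another in these windows.

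Between the sorting gates, the only contrast tested, every member was called over all kept cells. Hist1h2ap had 4.16 CPM among tdTomato-positive cells, against 1314 and 2347 CPM among tdTomato-negative cells of libraries 1 and 2. Hist2h2aa1 had 200 CPM among tdTomato-positive cells, against 61.5 and 93.1 CPM among tdTomato-negative cells. The log2 fold was -8.73 ± 0.61 (SE) for Hist1h2ap and 1.36 ± 0.30 for Hist2h2aa1, with adjusted p of 6.18e-43 and 4.15e-05 in edgeR's quasi-likelihood test. Without tdTomato-negative library 2 the log2 fold of Hist1h2ap was -7.81. The other 7 fell, with log2 folds of -3.03 (H2afx) to -1.57 (H2afv). Of all 10944 genes tested, 41.8% were called, 22.9% higher and 19.0% lower, so a call here sets no gene apart. The tdTomato-positive library held no dividing-like cell and 177 ependymal-like cells of 252. In such sums, fewer cells of a type and less RNA per cell cannot be told apart. The members were chosen on their levels in such classes and with results of this contrast known. The calls over all cells are therefore no independent support.

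Within ependymal-like cells 8 members passed the count filter, all but H2afx, and 2 were called lower, where 0.291% of 4118 genes were called 0.121% lower and 0.17% higher. Hist2h2aa1 had 243 CPM in tdTomato-positive cells, against 445 and 712 CPM in tdTomato-negative cells, a log2 fold of -1.27 ± 0.31 (edgeR, adjusted p = 0.0205). The tdTomato-positive value lay below both others, but the call was lost with DESeq2 (adjusted p = 1.00), without the count filter (0.979) and with a stricter cell filter (0.115). Without tdTomato-negative library 2 its log2 fold was -0.66. Hist1h2ap had 5.10 CPM in tdTomato-positive cells, against 0 and 181 CPM in tdTomato-negative cells, so the groups overlapped. Its adjusted p of 1.38e-05 (edgeR) rests on the 32 UMIs of tdTomato-negative library 2; without that library the log2 fold was 0.76, and DESeq2 gave an adjusted p of 1.00.

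The other 6 members were not called in ependymal-like cells. H2afz had 311 CPM in tdTomato-positive cells against 512 and 576 CPM in tdTomato-negative cells (log2 fold -0.75 ± 0.31). H3f3b had 1238 CPM against 1913 and 1571 CPM (-0.36 ± 0.29), and H1f0 had 114 CPM against 133 and 84.7 CPM (0.31 ± 0.48). H2afv, H2afy and H3f3a had log2 folds of -0.45, -0.18 and -0.25, and all 6 had an adjusted p of 0.999 (edgeR). Neither the 12 ependymal-like cells of tdTomato-negative library 1 nor 1 residual degree of freedom can show small differences.

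**Figure D5:**
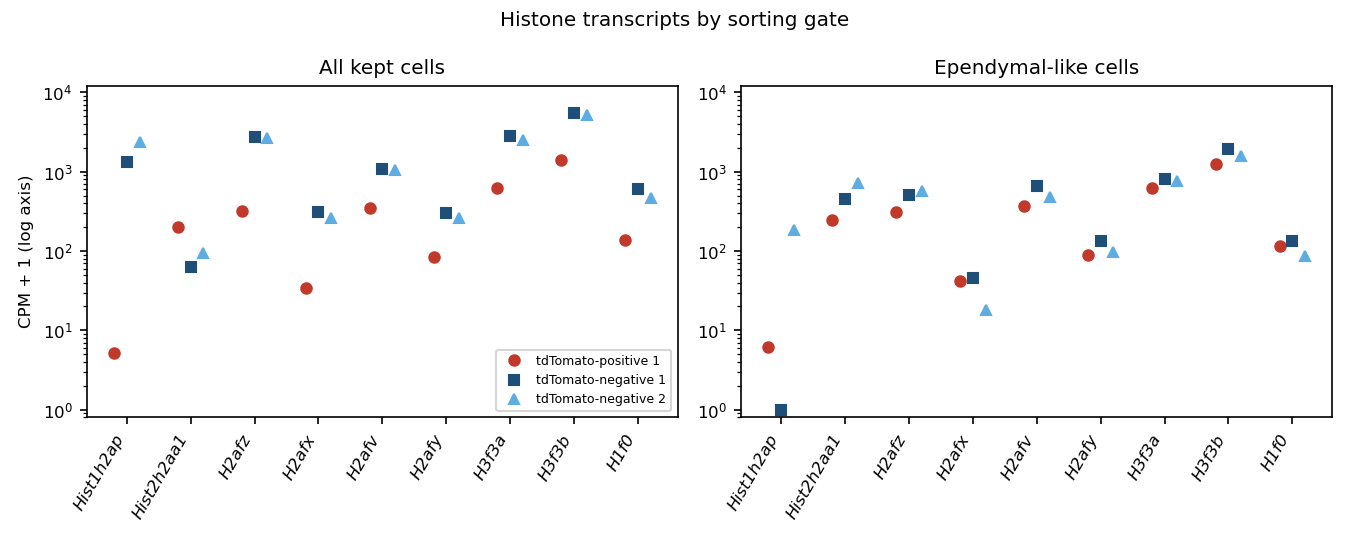
Level of the 9 members (CPM + 1, log axis) in 1 tdTomato-positive and 2 tdTomato-negative libraries, over all kept cells (left) and over ependymal-like cells (right), 1 point per library. Over all cells 8 members lie lower in the tdTomato-positive library and Hist2h2aa1 higher, whereas over ependymal-like cells Hist2h2aa1 lies lower, at 243 CPM against 445 and 712 CPM.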

How the data were processed

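Each library has 1 matrix of UMI counts, not normalized, as deposited by the authors. The submitters' processing notes name Seurat 1.4.0.15, STAR and Cell Ranger, and the builds GRCm38.p5 and mm10, without their roles. The 9 members and all lists were chosen with earlier results of these data known. Kept barcodes had 300 or more genes and no more than 25% mitochondrial UMIs. They were scaled to 10000 and clustered without histone, histone processing or chaperone genes (scanpy 1.11.5, 1000 variable genes, 20 components, 15 neighbours, Leiden 1.0, seed 1). Clusters were named from the markers among their 10 leading genes. Doublets were kept, except in an alternative without the cells that Scrublet called.

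Counts were summed per class and library. Log2 ratios between classes and bins added 10 CPM and were not tested. Gates were compared by edgeR 4.0.16 (quasi-likelihood, TMM, filterByExpr, Benjamini-Hochberg at 0.05 over all genes tested) on 3 sums with 1 residual degree of freedom. The spread came from the tdTomato-negative libraries, with each gene's estimate drawn toward that of all genes tested. The single tdTomato-positive library is taken to vary as those libraries do. Standard errors are the absolute log2 fold over the square root of F. On simulated counts the test found 77.5% of 200 genes changed 8-fold over all cells (10944 genes) and 96.5% over ependymal-like cells (4118 genes). Every simulated gene and library had the same dispersion. These shares therefore cannot show whether the tdTomato-positive library varies like the others. They do not cover smaller folds, and false calls are not reported here.

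The named genes were the 9 members, the 10 other clustered rows with most UMIs, the 4 genes of each of 3 lists (other variants, 3′ end processing, chaperones) with the largest ratio of dividing-like to ependymal-like cells in either direction and at least 50 UMIs, and the 5 genes most like Hist1h2ap, H2afz, H3f3b and H1f0; those of H3f3b are not reported here.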

Additional observations from a re-analysis of the deposited data

Results flagged for a closer look

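Hist2h2aa1 moved in opposite directions between the gates depending on the cells summed. Over all cells its log2 fold of the tdTomato-positive over the tdTomato-negative libraries was 1.36, and within ependymal-like cells it was -1.27. In each population the tdTomato-positive value lay outside both tdTomato-negative values, above them in all cells and below them in ependymal-like cells. The difference between the 2 folds was not tested, and the populations share cells. Ependymal-like cells, where the transcript was highest, made up 177 of 252 kept cells of the tdTomato-positive library, against 12 of 256 and 46 of 1121 in tdTomato-negative libraries 1 and 2.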

How the results depend on the processing

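Settings with the Ung-led cluster joined, and those leaving out a library for the bins and for the highest class, were chosen after seeing the data. The counts of members higher in dividing-like cells stayed at 8 against both ependymal-like and astrocyte-like cells under all 22 alternatives run (1 and 50 CPM added, 1.5-fold, 2 other resolutions, histones in clustering, stricter cells, Scrublet calls removed, each library left out, the Ung-led cluster joined). Leaving out a library gave 8 to 8. Hist1h2ap over ependymal-like cells ranged over log2 ratios of 5.35 to 8.71, and 1 library held 0 UMIs there. The calls over all cells stayed at 9 in 5 alternatives. Within ependymal-like cells 2 calls became 0 with DESeq2, which called 0 genes in all and had 19 at an unadjusted p under 0.05, and 1 without the count filter and 1 with the stricter cell filter; the cause was not tested. There the log2 fold of Hist1h2ap ranged from -3.89 to 0.76 with 1 tdTomato-negative library left out, reversed without replicate 2, and that of H2afy reversed to 0.10 with the stricter filter. Leaving out a tdTomato-negative library left 1 against 1, a fold with no test. The number of members highest in dividing-like cells among 6 classes was 6, also after thinning, and 5 to 6 with a library left out (5 without tdTomato-negative library 2). The decline of Hist1h2ap over the bins (2.41) ranged from 1.70 to 3.12 without a library and reversed to -0.56 with the Ung-led cluster joined, which adds 118 cells; with 2 bins it was 1.88. No paired analysis was possible because the tdTomato-positive group has 1 library and shares fewer than 2 replicate numbers with the other. Depth limits H2afx in ependymal-like cells, at 2 to 24 UMIs a library.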

Other observations

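A few cells outside the dividing-like cluster held many Hist1h2ap molecules. In oligodendrocyte precursor-like cells Hist1h2ap had 31.3 CPM in tdTomato-negative library 1 and 610 CPM in library 2, with 53 UMIs in the highest of 67 cells, and a UMI in 35.8% of them. H2afx reached 25 UMIs in 1 of these cells. The summed genes of G2 and mitosis stood at 705 and 2182 CPM in these cells. In the Ung-led cluster 1 cell held 128 UMIs of Hist1h2ap, against a median of 3 and 2 per cell in libraries 1 and 2. These values were singled out after they were seen.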
